A study of Mus musculus with 2 samples.

Results

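Nuclear genes for the respiratory chain and the ATP synthase were described in mouse cultures labelled as T helper 9 (TH9) cells, a CD4 T cell type named for its secretion of IL-9. The members were the 98 protein-coding genes of the RefSeq annotation with symbols of the Nduf, Uqcr and Atp5 families, the 4 succinate dehydrogenase subunits, the Cox4 to Cox8 families, Cyc1 and Cycs. Of these, 95 had a probe and 92 were well above background on both arrays, among 12958 such genes in all. The 19 pseudogenes with such symbols were left out. One culture came from wild-type mice and the other from mice with the genotype SIRT1flox/flox-CD4-Cre, in which a Cre recombinase driven by Cd4 acts on floxed Sirt1. Both started from naive T cells of spleen and lymph nodes, sorted as CD4+TCR+CD62Lhi CD44lo, which were activated with anti-CD3, anti-CD28 and human IL-2, and cultured with IL-4 and TGFβ1 for 5 days, or 5 to 6 in the protocol. The ages, sex and number of the mice behind each culture are not given in the sources used here. With 1 array per genotype, differences between the arrays are given without replicates and without a test.

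The respiratory chain passes electrons from NADH (complex I) and succinate (complex II) through ubiquinone, complex III and cytochrome c to oxygen at complex IV. Complexes I, III and IV pump protons across the inner mitochondrial membrane, and the ATP synthase (complex V) uses their return to make ATP. Activated T cells raise both glycolysis and mitochondrial respiration, and SIRT1 is an NAD-dependent deacetylase whose known substrates include PGC-1α, a coactivator of mitochondrial genes. The subunits that mitochondrial DNA encodes were not analysed here.

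Promoter sequence was not used in the choice of members by symbol, and 6 motifs were counted in it. The RefSeq table of promoter windows (build GRCm38.p6, from 250 bases before to 50 after a gene's start) held 79 of the 98 members. A motif of the nuclear respiratory factor NRF1 (searched as GCANGCGC on both strands) was present in 30 of them (38%). The share was 19.6% among the 10373 genes with a window that were well above background on both arrays, and 10.8% among all 27025 genes with a window. The ETS motif bound by GABP (CCGGAAG, both strands) was in 19 members (24.1%), against 18.8% and 9.93%. The YY1 motif (AAGATGG, both strands) was in 12 members (15.2%), against 8.3% and 7.28%, and in 9 of these 12 it lay after the start, where 29.4% of all genes with this motif have a match. The motif of the ERR nuclear receptors (AAGGTCA) was in 8 members (10.1%, against 4.25% and 5.38%). The NF-Y motif (CCAATC) was in 19 members (24.1%, against 23% and 18.2%). The SP1 motif (GGGCGG) was in 36 members (45.6%), below its 63.8% among genes above background and above its 38.2% among all genes. An NRF1 or an ETS match was present in 41 members (51.9%), against 34.1% of genes above background, and 11 members had none of the 6 motifs. The shares were not tested against each other. NRF1 matches can overlap each other, since the motif is nearly its own reverse complement, and a match is a description of letters, not of binding.

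**Figure D1:**
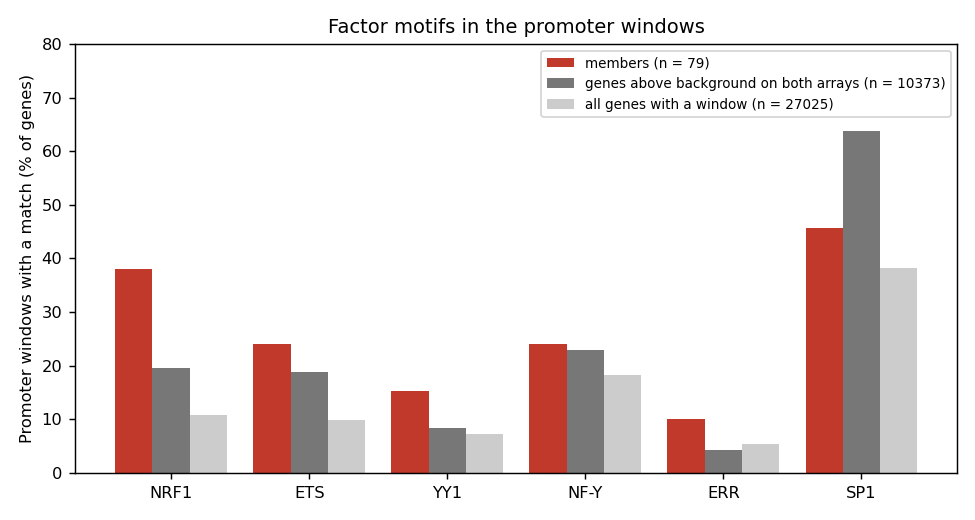
Percent of genes whose promoter window holds each motif, for the 79 members with a window, the 10373 genes above background on both arrays and all 27025 genes with a window. NRF1 matches stand at 38% of members against 19.6% and 10.8%, while SP1 matches are at 45.6% of members against 63.8% and 38.2%.

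NRF1 matches were in 3 of 3 complex II genes with a window, 3 of 5 of complex III, 9 of 15 of complex V, 10 of 35 complex I subunits and 2 of 13 of complex IV. The last 100 bases before the start are printed 5′ to 3′ for the 3 complex II genes, since all of them have the motif, with cytochrome c, a subunit c gene of the ATP synthase, and Cox5a as a member without it. Capitals mark NRF1, ETS and YY1 matches. They lie at chr13:74350241-74350340 (minus strand) for Sdha, chr4:140961171-140961270 (plus) for Sdhb, chr9:50603850-50603949 (minus) for Sdhd, chr6:50566570-50566669 (minus) for Cycs, chr15:102671048-102671147 (minus) for Atp5g2 and chr9:57521132-57521231 (plus) for Cox5a, all in GRCm38.p6.
Sdha: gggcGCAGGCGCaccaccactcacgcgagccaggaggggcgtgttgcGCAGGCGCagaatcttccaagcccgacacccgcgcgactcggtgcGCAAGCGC
Sdhb: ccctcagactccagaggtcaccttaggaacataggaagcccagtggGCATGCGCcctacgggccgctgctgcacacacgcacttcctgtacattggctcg
Sdhd: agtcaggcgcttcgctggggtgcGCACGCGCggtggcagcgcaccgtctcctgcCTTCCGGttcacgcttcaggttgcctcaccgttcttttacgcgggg
Cycs: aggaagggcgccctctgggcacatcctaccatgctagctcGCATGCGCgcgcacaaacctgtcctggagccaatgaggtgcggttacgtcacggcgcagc
Atp5g2: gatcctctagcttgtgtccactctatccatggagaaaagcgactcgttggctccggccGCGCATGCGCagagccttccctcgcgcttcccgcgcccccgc
Cox5a: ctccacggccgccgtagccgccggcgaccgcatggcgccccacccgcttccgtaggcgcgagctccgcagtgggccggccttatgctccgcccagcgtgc
In this stretch Sdha has 3 NRF1 matches, Sdhd has an NRF1 and an ETS match, and the capitals of Atp5g2 are a pair of overlapping NRF1 matches on opposite strands.

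The targeted gene does not check the genotype label. The other array is called knockout-labelled here. Sirt1 read 3240 on wild-type and 2920 on knockout-labelled, a difference of -0.08 ± 0.20. The exons between the loxP sites and the part of the transcript that the probe reads are not given in the sources used here. All 10 T cell markers with a probe were well above background on both arrays, with differences from -1.13 for Cd3e to 0.92 for Lat, and so were all 7 B cell markers and all 7 macrophage and dendritic cell markers with a probe. Of 4 TH9 markers, the transcription factor genes Irf4 (506 and 386) and Batf (1820 and 1768) were well above background on both arrays. Spi1, the gene of PU.1, passed background on the knockout-labelled array only (9.36 and 27.6), and Il9 itself on neither (5.48 and 7.36). All 7 B cell markers were lower on the knockout-labelled array (median -0.23), and 6 of 7 macrophage markers (median 0.45) and 5 of 6 CD8 and NK cell markers (median 0.44) and 3 of 4 mast cell and basophil markers (median 1.07) were higher. The share of other cell types in each culture was not measured, and the part of these markers in the values below was not tested. In bulk RNA, fewer cells of a type and less RNA per cell cannot be told apart.

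Differences are on the log2 scale, knockout-labelled minus wild-type, after each array was scaled to its 75th percentile, and the error after ± is the scanner's own error of both spots. That error is about 0.20 for a bright probe and leaves out any variation between mice, cultures or labelling reactions. Signals are the scanner's processed intensities before scaling. Probes differ in brightness for reasons of their own, so a signal is no measure of amount between genes.

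As a group the members were close to level between the arrays. Their median difference was 0.04 over the 92 genes, with quartiles of -0.15 and 0.16, and 50 were higher and 42 lower on the knockout-labelled array. Over all 12958 genes the median was 0.00, with quartiles of -0.30 and 0.28. None of the 92 was at least 2-fold higher, where 3.95% of all genes were, and none was at least 2-fold lower, where 3.63% were. At 1.5-fold, 1 member was higher (Uqcrb) and 1 lower (Cox4i2), or 1.09% each, against 11% and 12% of all genes. In 58 members the difference was smaller than its scanner error, 18 were higher by more than that error (19.6%, against 29.9% of all genes) and 16 lower (17.4%, against 30.6%).

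The spread of differences depends on probe brightness, so the members are also set beside probes of like signal. Signals above the 75th percentile of both arrays were given by 79 of the 92 members (85.9%) and by 48% of all genes. Among the 1874 genes whose wild-type signal lay between the quartiles of the members' signals (a band that includes members), the median difference was 0.05 with an interquartile range of 0.37, against 0.32 for the members and 0.58 for all genes. Differences under 1.5-fold were found in 97.8% of the members, 90.7% of the genes in that band and 77.1% of all genes. These shares are descriptions of 2 arrays, with no test between them.

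**Figure D2:**
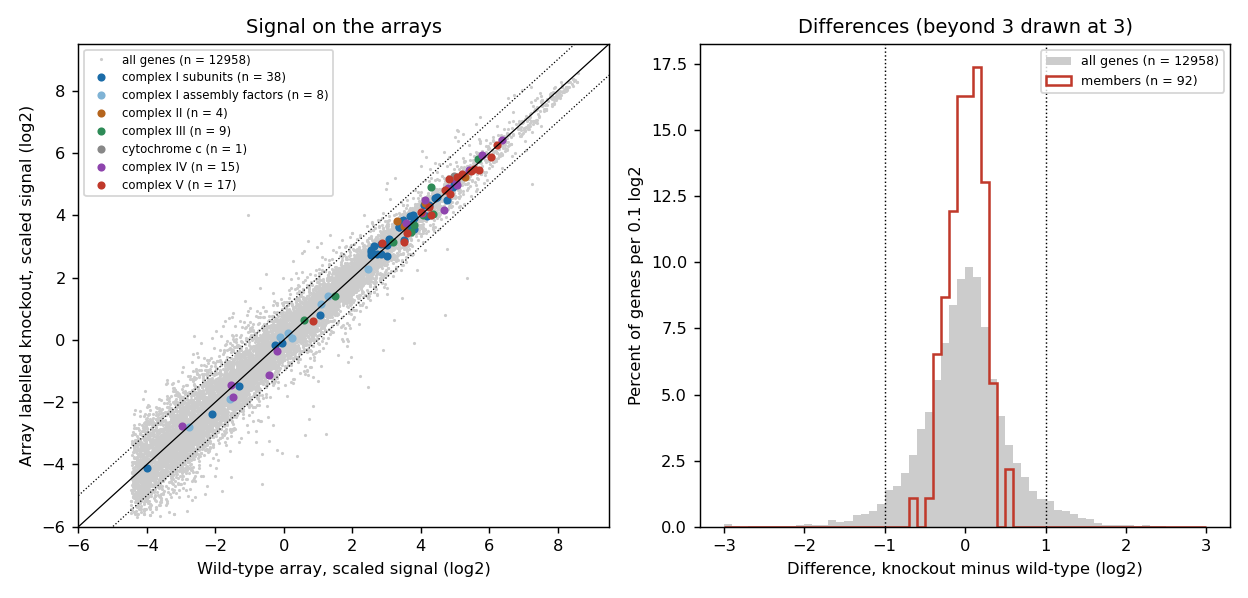
Left, scaled log2 signal on the wild-type array (x) and the knockout-labelled array (y) for all 12958 genes above background on both (grey) and the 92 members (coloured by complex), with the line of equality and dotted lines at 2-fold. Right, the share of genes per 0.1 log2 of difference, where the members stay between -0.69 and 0.60 and no member reaches the dotted 2-fold lines.

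Complex I, the NADH dehydrogenase, is the largest of the complexes and the entry point for electrons from NADH. All 38 subunit genes with a probe were well above background on both arrays, while Ndufb1, Ndufb4b and Ndufb4c had no matched probe. Their median difference was 0.05, with 21 higher and 17 lower, 11 of them higher and 6 lower by more than the scanner error, and none past 1.5-fold. The shares over all genes were 29.9% and 30.6% beyond that error, and 11% and 12% past 1.5-fold. The 7 nuclear core subunits, which carry the flavin and the iron-sulfur clusters, had a median of 0.11, and the 30 accessory subunits one of 0.04 (Ndufa4l2, an isoform with its own regulation, was kept apart).

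Among the core subunits, Ndufs7, which holds the last iron-sulfur cluster before ubiquinone, gave signals of 6020 on the wild-type and 7560 on the knockout-labelled array, a difference of 0.39 ± 0.20 and the highest of the complex. Ndufs8, another iron-sulfur subunit of the same arm, gave 1140 and 909 (-0.26 ± 0.20). Ndufv1, the subunit that binds NADH and the flavin, gave 7600 and 6180 (-0.23 ± 0.20). These 3 were the core subunits with differences beyond their scanner error, 1 of them higher and the other 2 lower. Ndufs8 and Ndufv1 were at -0.08 and -0.05 when centred on the array median, within the scanner error. With normexp background correction they were at -0.11 and 0.02, so neither has a settled direction. Ndufs7 was at 0.58 and 0.71 in these 2 settings. Ndufs1, the largest of the core subunits, gave 3160 and 3460 (0.20 ± 0.20), and Ndufs3 of the same peripheral arm gave 12200 and 12600 (0.11 ± 0.20). Ndufv2, which holds an iron-sulfur cluster beside the flavin, gave 7630 and 7750 (0.09 ± 0.20). These last 3 did not differ from each other beyond their errors.

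The accessory subunits spread about as widely. Ndufa6 gave 3410 and 4160, a difference of 0.35 ± 0.20 and the highest among them. Ndufc1 had the lowest value of the complex, with 4360 and 3330 (-0.32 ± 0.20), but was at -0.14 with median centring and -0.03 with normexp. Ndufa4, which carries a complex I name although its protein is known to associate with complex IV, followed with 14800 and 11600 (-0.29 ± 0.20). With normexp Ndufa4 was at 0.07. The 13 members of the Ndufa family other than Ndufa4l2 had a median of 0.05, the 10 of the Ndufb family one of 0.00 and the 8 of the Ndufs family one of 0.15, with no test between families. Ndufa4l2, an isoform known as a hypoxia target, was dim, with signals of 33.9 and 30.1 (-0.11 ± 0.31). Its difference was 0.09 with quantile normalization and -1.0 with another background correction (normexp), so this dim probe gives no direction.

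The 8 assembly factors named Ndufaf, which help build complex I without staying in it, had a median of 0.02, with 4 higher and 4 lower. Ndufaf3 was the only one beyond its scanner error, with signals of 182 and 141 (-0.30 ± 0.21), followed from below by Ndufaf8 with 3000 and 2520 (-0.19 ± 0.20). The highest were Ndufaf2, with 502 and 551 (0.20 ± 0.20), and Ndufaf1, with 1320 and 1370 (0.12 ± 0.20). A second, dimmer probe of Ndufaf4 gave 0.54 ± 0.21 where its brighter probe gave 0.07 ± 0.20.

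**Figure D3:**
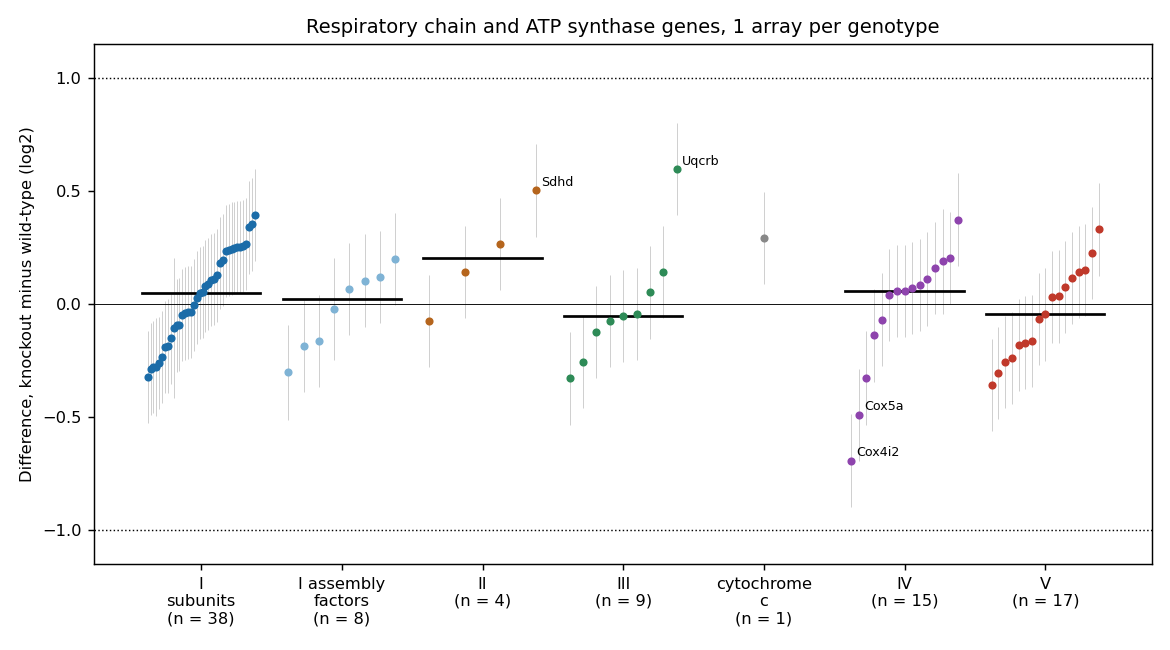
Difference between the arrays (log2, knockout-labelled minus wild-type) of the 92 members above background on both arrays, ordered within each complex. Points are genes, grey bars the scanner error, black lines the median of a complex and dotted lines 2-fold, and Uqcrb (0.60), Sdhd (0.50), Cox5a (-0.49) and Cox4i2 (-0.69) lie farthest from 0.

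Complex II, succinate dehydrogenase, is shared with the tricarboxylic acid cycle and is the only complex encoded wholly in the nucleus. It had the highest median, 0.20 over 4 genes. Sdhd, one of its membrane anchors, gave signals of 5430 and 7350, a difference of 0.50 ± 0.20, or 1.42-fold. Sdha, the flavoprotein that oxidises succinate, gave 6200 and 6530 (0.14 ± 0.20), and Sdhb, the iron-sulfur subunit, gave 21400 and 19400 (-0.08 ± 0.20). Sdhd was thus the member that stood out, and the catalytic pair stayed within the scanner error. Sdhc, the other anchor, gave 9480 and 10900 (0.27 ± 0.20) with its brighter probe but 278 and 212 (-0.33 ± 0.21) with its dimmer one, the only member whose probes disagreed in sign by more than their errors. With the mean over probes the median of the complex was 0.06, below the 0.08 of complex IV, so its place as the highest rests on which Sdhc probe is taken.

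Complex III, which passes electrons from ubiquinol to cytochrome c, had a median of -0.05 over 9 genes, with 3 higher and 6 lower. Uqcrb, a small subunit close to the ubiquinone site, was the highest of all 92 members. Its brightest probe gave signals of 10800 and 15600, a difference of 0.60 ± 0.20, or 1.51-fold. Its other 2 probes gave 7120 and 10300 (0.60 ± 0.20) and 4590 and 9130 (1.06 ± 0.20), so all 3 were higher on the knockout-labelled array and 1 of them passed 2-fold. The remaining subunits lay between -0.33 and 0.14.

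Uqcrfs1, the Rieske iron-sulfur protein at the catalytic centre of complex III, had the lowest value there, with signals of 11200 and 8520 (-0.33 ± 0.20). Uqcr10 gave 7120 and 5700 (-0.26 ± 0.20) with its brightest probe, -0.27 with the next and -0.83 with a dim one (277 and 149). Both genes were lower by more than the scanner error with every probe, but with normexp Uqcr10 was at 0.12 and Uqcrfs1 at -0.06. Cyc1, the cytochrome that hands the electron on, gave 1520 and 1380 (-0.07 ± 0.20), and the core proteins Uqcrc1 and Uqcrc2 had differences of 0.05 ± 0.20 and -0.05 ± 0.20. Uqcrh, the hinge protein, gave 27900 and 29400 (0.14 ± 0.20). Uqcrc2 had 8 usable wild-type spots and 10 knockout-labelled ones, with means of 9111 and 8397 and an SD between spots of 0.01 and 0.02 on the log2 scale, so the spots of this probe repeated far more closely than the scanner error states. Spots of the same array share 1 labelling and 1 hybridisation and say nothing of the cultures.

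Cycs, cytochrome c, the mobile carrier between complexes III and IV, gave signals of 17000 and 19900, a difference of 0.29 ± 0.20. A second probe gave 2640 and 2930 (0.22 ± 0.20), and the remaining one was well above background on neither array. Both measured probes were higher on the knockout-labelled array, each by slightly more than its scanner error.

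Complex IV, cytochrome c oxidase, reduces oxygen, and its nuclear subunits surround a core made in mitochondria. The 11 widely expressed nuclear subunits had a median of 0.06, with 8 higher and 3 lower. Within the scanner error were 9 of these 11 (81.8%), against 39.4% of all genes and 51.9% of genes in the members' band of signal. Cox5a, which lies on the matrix side, was the lowest of the 11, with signals of 13800 and 9390, a difference of -0.49 ± 0.20 (1.4-fold lower). Cox7b was the highest, with 9530 and 11800 (0.37 ± 0.20). Cox4i1, the regulatory subunit that senses ATP, gave 6430 and 7070 (0.20 ± 0.20), and Cox5b gave 15000 and 15200 (0.08 ± 0.20). By the brightest probe of each gene, Cox5a and Cox7b were the only widely expressed subunits beyond their scanner error. A dimmer probe of Cox7c gave 1150 and 843 (-0.38 ± 0.20), where its brightest gave 0.07 ± 0.20. Cox7a2l, a factor for joining complexes III and IV into supercomplexes, had 3 probes between 0.05 and 0.12.

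Of the 7 isoforms of complex IV known from other tissues, 4 were measured on both arrays, 1 on the knockout-labelled array only and 2 on neither. Cox4i2, the oxygen-responsive partner isoform of Cox4i1, gave signals of 406 and 240, a difference of -0.69 ± 0.21 (1.62-fold lower) and the lowest of all 92 members. Cox6b2, known from testis, gave 193 and 147 (-0.33 ± 0.21). The muscle isoforms Cox6a2 and Cox7a1 gave 185 and 191 (0.11 ± 0.21) and 69.7 and 75.9 (0.19 ± 0.23). The last pair turned to -0.29 and -0.56 with normexp, so neither has a settled direction, while Cox4i2 stayed between -0.69 and -0.51 in every processing tried. Cox8b, known from muscle and brown fat, passed background on the knockout-labelled array only (38.6, against 5.1 for wild-type). That makes it at least 1.64-fold higher there, taking the lowest signal well above background on the wild-type array (24.6) as the bound, but its difference was -0.69 with normexp. Cox7b2 and Cox8c were well above background on neither array. Of 5 muscle and heart markers, Myl2 (92 and 221, a difference of 1.33) and Myh6 (25.2 and 17.2, -0.49) were measured on both arrays, Actn2 and Tnnt2 on the knockout-labelled array only and Ckm on neither, and their part in the isoform signals was not tested. The wild-type signal of Actn2 (16.5) lay above the lowest signal that passed on the knockout-labelled array (9.6).

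Complex V, the ATP synthase, had a median of -0.05 over 17 genes, with 8 higher and 9 lower. Within the scanner error were 11 (64.7%), against 39.4% of all genes and 51.9% of genes in the members' band of signal. In the catalytic head, the alpha subunit Atp5a1 gave signals of 24200 and 22400 (-0.05 ± 0.20) and the catalytic beta subunit Atp5b gave 41100 and 40200 (0.03 ± 0.20). Atp5c1, the gamma shaft that turns inside them, gave 10800 and 8350 (-0.31 ± 0.20) with its brighter probe and -0.11 with the other. With normexp the brighter probe was at 0.01. Atp5e, the epsilon subunit at the foot of that shaft, was the highest of the complex, with 15400 and 18500 (0.33 ± 0.20). Atp5d, the delta subunit of the same central stalk, gave 986 and 799 (-0.24 ± 0.20), so 2 of the 3 genes of that stalk were lower and 1 was higher. Atp5d was at -0.05 with median centring and -0.09 with normexp, within its scanner error.

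All 3 genes for subunit c, which forms the ring that protons turn, were lower on the knockout-labelled array, although Atp5g2 turned to 0.02 with median centring, and Atp5g2 and Atp5g3 to 0.13 and 0.05 with normexp. Atp5g1 gave signals of 6210 and 4630 (-0.36 ± 0.20), the lowest of the complex, but was at -0.17 with median centring and -0.13 with normexp. Atp5g3 gave 28500 and 22800 (-0.26 ± 0.20), and -0.07 with median centring. In these 2 settings none of the 3 genes was beyond its scanner error. Atp5g2 gave 35800 and 30400 (-0.17 ± 0.20), with -0.51 by its second probe. These genes encode the same mature protein, so a probe might read more than 1 of them, and probe sequences are not given in the sources used here. In the peripheral stalk Atp5pb, Atp5h and Atp5j were higher (between 0.08 and 0.15), each within its scanner error. Atp5o, the OSCP subunit where this stalk meets the head, was lower, with 6650 and 5600 (-0.18 ± 0.20). By their brightest probes the small membrane subunits lay between -0.16 for Atp5k and 0.22 for Atp5md, which gave 4010 and 4480. A dimmer probe of Atp5j2, another of them, gave 0.46 ± 0.20 where its brightest gave 0.12 ± 0.20. The split between the ring and Atp5pb, Atp5h and Atp5j leaves out Atp5o, was seen after the values and is a description of 6 genes.

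Among the 23 members with several probes well above background on both arrays, 18 had all probes on the same side of 0 and 5 did not. The median gap between a gene's lowest and highest probe was 0.15, and 14 of 23 gaps were under 0.20, the scanner error of 1 difference. The widest were 0.59 for Sdhc and 0.57 for Uqcr10, each between a bright and a dim probe. The 5 probes of Atp5l, a small membrane subunit, lay between -0.17 and -0.06.

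**Figure D4:**
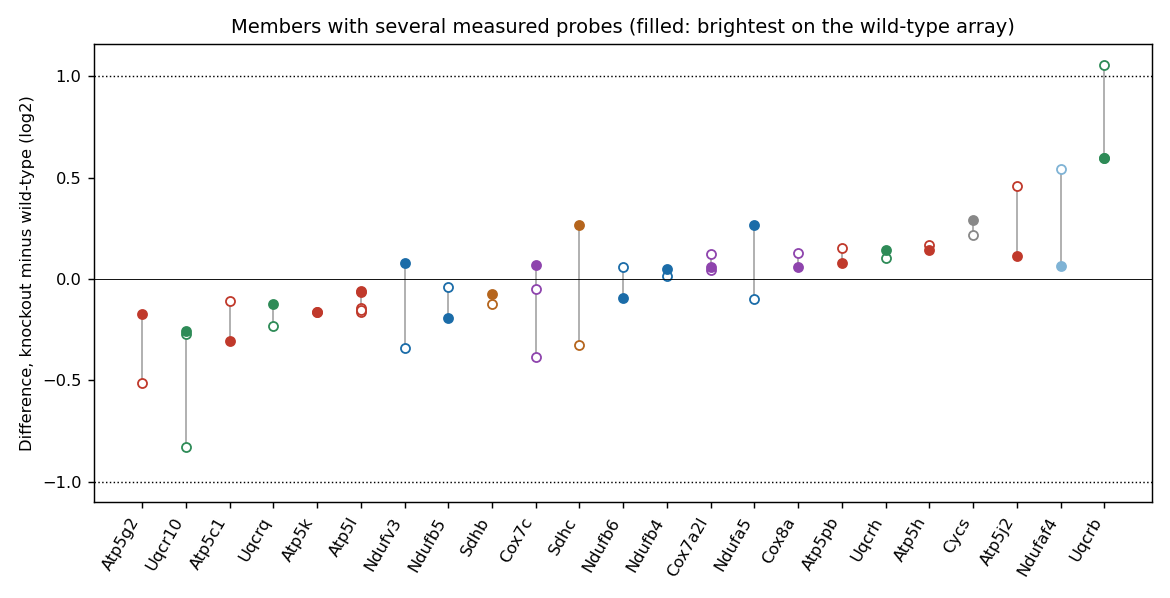
Difference between the arrays (log2) by each probe of the 23 members with several measured probes, with the probe brightest on the wild-type array filled and colours by complex as for the plot of differences by complex. Uqcrb has all 3 probes at or above 0.60, Atp5l has its 5 between -0.17 and -0.06, and Sdhc has 1 probe on each side of 0.

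The order of the complexes held only in part when the data were processed in other ways. The medians were 0.20 for complex II, 0.06 for IV, 0.05 for I, -0.05 for V and -0.05 for III, with no test between them. Centring on the array median moved the median of all genes by 0.19 and gave 75 members higher and 17 lower in place of 50 and 42, and normexp gave 73 and 19. Read against genes in the members' band of signal, complex II had the higher median in 7 of 7 ways of processing (by 0.05 to 0.16), and complexes III (-0.18 to -0.06) and V (-0.10 to -0.03) the lower one in 7 of 7, while complex I differed from that band by at most 0.03. The band had a median wild-type signal of 5245 and complex V one of 15400, so for complex V it is not a set of like signal. Median centring shifts all differences by a constant, so its gaps from the band equal those after scaling to the 75th percentile. These ways of processing start from the same 2 arrays and repeat no measurement.

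**Figure D5:**
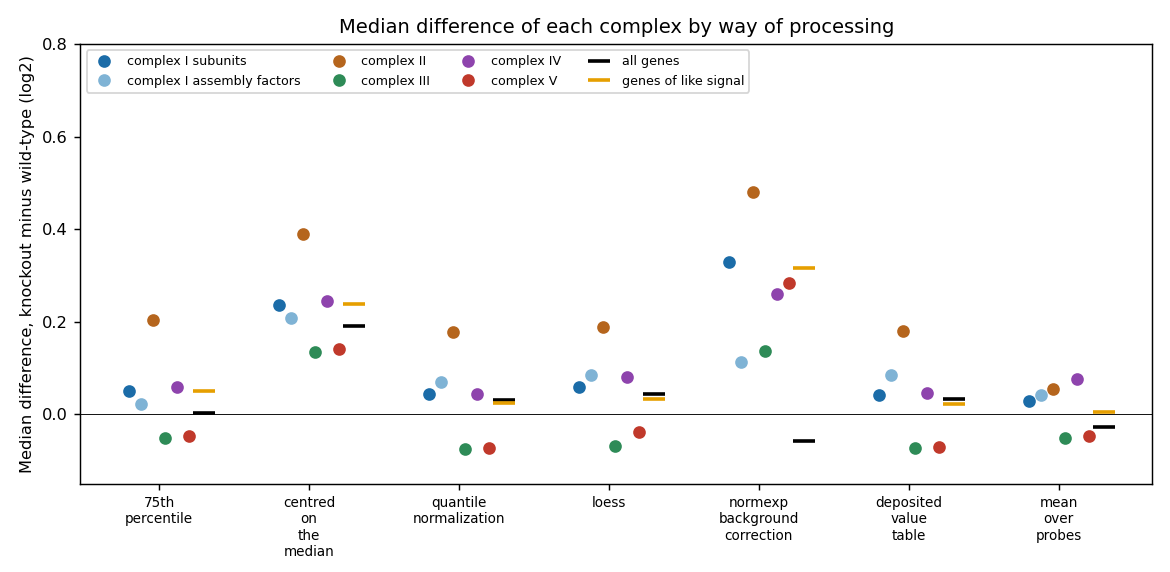
Median difference (log2, knockout-labelled minus wild-type) of each complex under 7 ways of processing, with the median of all genes (black) and of genes in the members' band of signal (orange). Complex II lies above the orange mark and complexes III and V below it in all 7, and all medians shift together with median centring and, for bright genes, with normexp.

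Other mitochondrial genes were taken from lists written with earlier results known. Of 38 assembly factors with other names, 19 were higher and 19 lower (median 0.00), 7 and 6 of them by more than the scanner error and none past 1.5-fold. Among all genes, 29.9% were higher and 30.6% lower by more than that error, and 11% and 12% passed 1.5-fold. The highest were Coa3 (0.46 ± 0.20) and Sdhaf4 (0.40 ± 0.20), which serve complexes IV and II, and the lowest Timmdc1 (-0.53 ± 0.21), for complex I, and Cox10 (-0.41 ± 0.31), which makes the haem of complex IV. The 18 enzymes of pyruvate entry and the tricarboxylic acid cycle had a median of 0.13, with 13 higher, from Pdhx (-0.25) and Fh1 (-0.21) to Suclg2 (0.36) and Idh2 (0.40). Of 17 other mitochondrial proteins 13 were lower (median -0.10), where 6430 of 12958 genes in all were. Ucp2 was at -0.71 ± 0.22 and the ADP/ATP carrier Slc25a5 at -0.39 ± 0.20. The chaperonins Hspd1 and Hspe1 were at 0.32 and 0.33. With median centring and with normexp, only Ucp2, Slc25a5, Vdac1, Phb2 and Immt of these proteins stayed lower. Timm23, for example, went from -0.10 to 0.08 and 0.15.

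The regulators of mitochondrial genes had 10 higher and 10 lower of 20, with a median of -0.01. Twnk, the helicase of mitochondrial DNA, was the lowest at -0.70 ± 0.23 (85.9 and 50.7), followed by Gabpb1 at -0.42 ± 0.20. Mterf1a (0.40 ± 0.20) and Tfam, which packages mitochondrial DNA (0.21 ± 0.20), were the highest, but Tfam was at 0.0079 with the mean over its probes. Genes of the factors whose motifs were searched are given whatever their values. Nrf1 gave signals of 839 and 726 (-0.14 ± 0.20), Gabpa 2380 and 1880 (-0.28 ± 0.20), Yy1 2290 and 1850 (-0.24 ± 0.20) and Esrra 4990 and 5520 (0.21 ± 0.20). With the mean over probes Nrf1 was at -0.38, and with normexp it was at 0.02 and Gabpa at 0.08. Yy1 was at -0.06 with median centring and -0.03 with normexp, and Esrra at 0.40 and 0.51. The values of these factor genes thus depend on the probe or the processing. Ppargc1a, the gene of PGC-1α, was dim at 102 and 108 (0.15 ± 0.22, and -0.46 with normexp).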

How the data were processed

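Total RNA of 2 cultures was hybridised to 1-colour (Cy3) Agilent mouse arrays, 1 array per genotype, and groups follow the genotype label. Agilent Feature Extraction 11.0.1.1 made the deposited scanner files (per the submitters' processing notes and the headers), whose processed signal is an intensity with background subtracted within the array. Both arrays share a slide and a scan, per the headers. The authors also deposited processed values on a log2 scale, with normalization and centring not given in the sources used here; both columns have a median of 5.36.

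From 43020 gene spots per array, those with an outlier flag (228 and 138) were left out, and none was saturated. Spots of a probe were averaged as log2 processed signal, and each array's 75th percentile over 39411 probes (signals of 544 and 520) was subtracted. Of these, 27220 probes matched one of 20651 genes through unversioned RefSeq accessions in a table of GRCm38.p6; the headers name another build, so no probe coordinates are given. A gene took its brightest probe, preferring probes that passed background on either array. Medians and counts use genes well above background on both arrays, and the scanner error combines both signals' errors. The number of arrays limits the precision, and no p-value was computed.

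Members and lists were chosen with earlier results of these data known. Genes were named by rule: per complex the 2 highest, the 2 lowest and any difference of at least 0.5, the core subunits, the isoforms of other tissues, members with disagreeing or replicated probes, and the 2 highest and 2 lowest of each related list. Others were chosen after their values were seen, and 1 gene that the rule names is not reported here. Alternatives were median centring, quantile normalization, loess (span 0.3), normexp with an offset of 50 on the median pixel intensity, the mean over probes, the deposited log2 values, other filters and thresholds. Calculations ran in Python 3.11.15, with limma 3.58.1 in R 4.3.3, and were tested on simulated data. No protein table was at hand, so isoform proteins were not compared.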

Additional observations from a re-analysis of the deposited data

How the results depend on the processing

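With normexp background correction the median difference was 0.28 over all members, 0.33 for complex I subunits, 0.48 for complex II and 0.28 for complex V, each more than a scanner error (0.20) above its value after scaling to the 75th percentile, and the cause was not tested; genes in the members' band of signal moved too, from 0.05 to 0.32. The other medians kept within that error. Those of complexes III and V changed sign with median centring (0.13 and 0.14) and with normexp (0.14 and 0.28). At least 2-fold higher were 0 members, and 1 when the background filter was dropped and 1 at the 1.5-fold threshold. At least 2-fold lower were 0, and 1 with normexp, 2 without the filter and 1 at 1.5-fold. The 1.5-fold counts (1 and 1) were 9 and 5 with normexp, 2 and 0 with median centring, and 0 and 1 with quantile normalization and with the deposited table. For the 41 named members measured on both arrays, 212 of 246 alternative values lay within a scanner error of the main value. Of the 34 others, 33 came from normexp. Part of this count was fixed in advance. Median centring shifts all differences by a constant smaller than that error, and a gene with 1 probe keeps its value with the mean over probes. The count is therefore no measure of how stable the differences are. In the deposited table, 0 of 94 members left the trend of like signals by over 0.5. Dim isoforms are limited by their background. No paired analysis was possible because each genotype has 1 array.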

Other observations

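The motif content of the promoters was set beside the differences as a description. The 30 members with an NRF1 match and a measured difference had a median of 0.03 and the 45 without one a median of 0.07, the 19 with an ETS match 0.11 and the 56 without 0.04, and the 12 with a YY1 match 0.13 and the 63 without 0.03. For SP1 the medians were 0.08 in 35 members with and -0.04 in 40 without. None of these gaps was tested.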
